A study of Homo sapiens with 12 samples.

Results

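The genes described here are the SOCS family (SOCS1 to SOCS7 and CISH), which encodes feedback inhibitors of cytokine signalling, and STAT3, a transcription factor of the same pathway. They were chosen by name, with earlier results of these data known. They are 9 genes of the 57500 in the count tables, each matched to a symbol by its Ensembl identifier. All 9 passed the filter on low counts. RNA was sequenced from THP-1, a human cell line of monocytic leukaemia origin, which carried a lentiviral non-target shRNA in every sample. The 4 groups were 10% CO2 with LPS, 5% CO2 with LPS, 10% CO2 without LPS and 5% CO2 without LPS, with 3 libraries each. Cells spent 4 h in buffered medium at their CO2 level, and LPS, the outer-membrane lipid of Gram-negative bacteria sensed by TLR4, was present at 2.5 µg/ml for the last 2 h. The 10% level models hypercapnia with the medium's pH kept by the buffer. A single line was used, and the labels do not tie the libraries of a group to separate cultures, so the p-values rest on a spread between samples that may be technical.

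Cytokine receptors without kinase activity of their own signal through Janus kinases (JAKs), which phosphorylate STAT proteins. STATs then enter the nucleus and switch on genes, among them those of SOCS proteins. SOCS proteins bind activated receptors or JAKs through an SH2 domain and, through a SOCS box, recruit a ubiquitin ligase, which closes a negative feedback loop. In monocytes and macrophages SOCS1 and SOCS3 are known as brakes on interferon and IL-6 signalling, and STAT3 carries the anti-inflammatory signal of IL-10. CISH and SOCS2 are textbook targets of STAT5.

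Promoters of 6 of the 9 genes were in the RefSeq promoter table (GRCh38.p14). In the 250 bases before the start, that of CISH held 4 matches to the STAT motif TTCNNNGAA, which reads the same on both strands. Among 35116 promoter windows of that length, 6.57% held at least 1 match, 0.356% at least 2 and 0.0142% (5 windows) at least 4. The windows of SOCS1, SOCS4, SOCS6 and STAT3 held none. The 2 windows of SOCS3, at 78360926 to 78361175 and 78359668 to 78359917 on the minus strand, also held none. The counted SOCS3 gene starts at 78360077 on that strand, and neither window covers the 250 bases before it. That stretch was not searched, so SOCS3 cannot be compared with CISH here. SOCS1 held 1 match to the core of the interferon-stimulated response element (GAAA, any 2 bases, GAAA, searched on both strands), as did 3.02% of all windows, and 1 match to the kappaB consensus, also searched on both strands, as did 9.96%. The CISH and SOCS1 windows are shown because both genes had lower counts with LPS, with capitals marking the STAT matches in CISH (first bases 241, 230, 129 and 112 before the start) and the interferon element match in SOCS1 (first base 113 before the start).
CISH, minus strand, chr3:50611775-50612024: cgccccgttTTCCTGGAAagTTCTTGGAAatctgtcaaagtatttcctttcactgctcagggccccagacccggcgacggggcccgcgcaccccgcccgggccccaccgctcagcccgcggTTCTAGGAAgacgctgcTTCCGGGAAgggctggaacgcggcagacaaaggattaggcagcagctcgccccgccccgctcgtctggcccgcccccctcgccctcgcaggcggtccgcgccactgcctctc
SOCS1, minus strand, chr16:11256205-11256454: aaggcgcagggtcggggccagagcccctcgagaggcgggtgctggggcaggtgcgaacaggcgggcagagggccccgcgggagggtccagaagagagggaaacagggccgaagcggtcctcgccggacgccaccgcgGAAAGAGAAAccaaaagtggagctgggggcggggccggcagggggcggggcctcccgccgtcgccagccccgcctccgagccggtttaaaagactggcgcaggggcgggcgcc
These are matches of letters and not measured binding sites.

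Total counts were 17.1 to 22.2 M per library, and a floor of 3 counts corresponded to 0.135 to 0.175 CPM (counts scaled to library size), for counting error only. All 8 monocyte markers of the line had a mean of at least 1 CPM. Of the marker sets of 6 other cell types, those of T cells, epithelial and erythroid cells had no gene at that level, and 1 of 3 B cell markers (PAX5), 1 of 4 fibroblast and 1 of 4 endothelial markers did. Mitochondrial genes held a larger share of counts in every library at 10% than at 5% CO2, 2.28 to 4.15% against 1.28 to 1.78% with LPS and 2.01 to 3.05% against 1.31 to 1.96% without. Below, CPM are TMM-normalized, and fold changes are log2 values from edgeR's quasi-likelihood test, with Benjamini-Hochberg adjusted p over 16402 genes and calls at an adjusted p under 0.05.

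The comparison of LPS with no LPS asked how the family responds to an inflammatory stimulus. SOCS3 rose by over 40-fold at both CO2 levels, CISH fell by over 4-fold, and SOCS1, SOCS2 and SOCS5 also fell. At 10% CO2, 3 of the 9 genes rose (SOCS3, SOCS4 and STAT3) and 4 fell (CISH, SOCS1, SOCS2 and SOCS5). At 5% CO2, SOCS3 alone rose and the same 4 fell. Over all genes tested, 35.2% were called at 10% CO2 (16.6% higher, 18.6% lower) and 24.9% at 5% CO2 (11.8% higher, 13.1% lower). Libraries with and without LPS did not overlap for 8 of the 9 members at 10% and all 9 at 5% CO2, and for 46.1% and 39.2% of all genes. The members' median log2 change was −0.16 at 10% and −0.25 at 5% CO2, against −0.02 and −0.01 over all genes.

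SOCS3, which blocks JAKs at receptors of the gp130 type, is the most responsive of these genes (ENSG00000184557, chromosome 17, 78356778 to 78360077, GRCh38). Its counts at 10% CO2 were 321, 285 and 238 CPM with LPS, against 4.65, 3.30 and 4.86 CPM without. At 5% CO2 they were 271, 213 and 266 CPM with LPS, against 7.32, 5.18 and 5.71 CPM without. The libraries with and without LPS lay far apart, and the values with LPS overlapped between the CO2 levels. The rise was 6.03 ± 0.17 (SE) on the log2 scale at 10% CO2, or 65.5-fold (adjusted p = 3.93e-14), and 5.36 ± 0.17 at 5% CO2, or 40.9-fold (adjusted p = 1.48e-13). Ranked by log2 change, SOCS3 was number 83 of 16402 genes at 10% and number 82 at 5% CO2. These counts average over all cells of a dish, so a change in the number of expressing cells cannot be told apart from a change in RNA per cell.

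CISH, a feedback inhibitor of STAT5 signalling, moved the other way (ENSG00000114737, chromosome 3, 50606490 to 50611831). It had 1.95, 1.38 and 2.72 CPM with LPS at 10% CO2, against 10.7, 10.6 and 11.9 CPM without. With LPS at 5% CO2 it had 2.75, 1.96 and 3.30 CPM, against 13.1, 11.2 and 11.05 CPM without. The groups did not overlap at either CO2 level. The log2 change was −2.43 ± 0.21 at 10% CO2, or 5.40-fold lower with LPS (adjusted p = 2.42e-08), and −2.14 ± 0.20 at 5% CO2, or 4.40-fold lower (adjusted p = 1.07e-07). Of its 5112 exon bases, 218 (4.26%) are shared with MAPKAPK3 on the opposite strand, which held 24043 reads over all libraries against 1717 for CISH. Whether reads from that stretch were kept apart depends on the strand setting, which is not known here.

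SOCS1, a direct inhibitor of JAK kinase activity, was low, and without LPS it had the widest relative spread of the 9 genes between libraries (ENSG00000185338, chromosome 16, 11254405 to 11256179). Its values at 10% CO2 were 1.01, 1.38 and 0.907 CPM with LPS, against 2.60, 1.98 and 4.77 CPM without. At 5% CO2 they were 1.40, 1.24 and 1.72 CPM with LPS, against 5.92, 8.43 and 3.34 CPM without. With LPS the 6 libraries held 17 to 35 reads of SOCS1 each, and all lay below all 6 libraries without LPS. The log2 change was −1.52 ± 0.39 at 10% CO2 (adjusted p = 0.00597) and −2.00 ± 0.35 at 5% CO2 (adjusted p = 0.000461).

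SOCS2, which restrains growth hormone signalling, had 4.73, 4.42 and 4.77 CPM with LPS at 10% CO2, against 6.60, 9.43 and 10.1 CPM without. With LPS at 5% CO2 it had 4.78, 5.32 and 4.72 CPM, against 7.23, 6.06 and 7.66 CPM without. All libraries with LPS lay below those without. The log2 change was −0.91 ± 0.17 at 10% CO2 (adjusted p = 0.00034) and −0.50 ± 0.17 at 5% CO2 (adjusted p = 0.0361). At 5% CO2 the call was lost without any of 5 libraries, namely replicates 1, 2 and 3 with LPS (adjusted p = 0.096, 0.055 and 0.109) and replicates 1 and 3 without (0.0964 and 0.127). It was also lost with no filter on low counts (adjusted p = 0.0615). SOCS2 shares 277 exon bases with its antisense gene SOCS2-AS1, which held 150 reads over all libraries against 1540 for SOCS2.

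**Figure D1:**
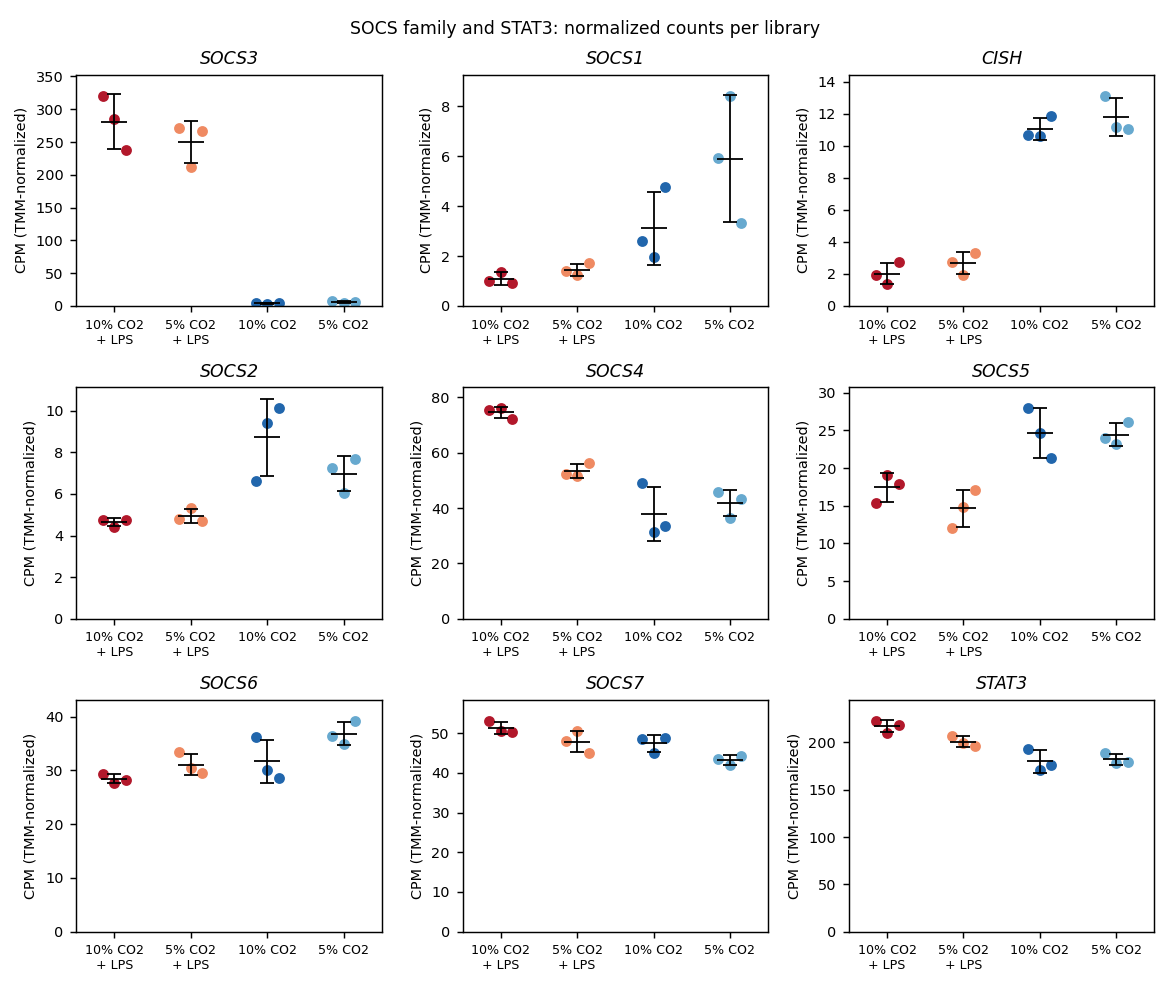
TMM-normalized CPM of each gene (vertical axis, linear, from 0) in each of the 12 libraries (points) of the 4 groups, with the mean and SD of 3 libraries in black. SOCS3 stands at 213 to 321 CPM in the 6 libraries with LPS and at 3.30 to 7.32 CPM in those without, while CISH and SOCS1 are lower with LPS.

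SOCS4 to SOCS7 form the part of the family with long amino-terminal regions, and SOCS4 and SOCS5 are known for acting on EGF receptor signalling. SOCS4 rose with LPS at 10% CO2, where it had 75.4, 76.0 and 72.2 CPM, against 49.2, 31.2 and 33.4 CPM without LPS (log2 change 0.97 ± 0.13, adjusted p = 1.6e-05). At 5% CO2 it had 52.3, 51.4 and 56.3 CPM with LPS, against 45.9, 36.5 and 43.1 CPM without, and did not pass (0.35 ± 0.13, adjusted p = 0.0674). Its groups did not overlap at either CO2 level, and at 5% CO2 it was called by DESeq2 (adjusted p = 0.0474), in a fit of those 2 groups alone (0.0189), with no filter (0.0125) and without 10% CO2 replicate 1 (0.00784). SOCS5 fell at both levels, with 15.3, 19.1 and 17.9 CPM with LPS at 10% CO2, against 27.9, 24.6 and 21.3 CPM without (log2 change −0.50 ± 0.13, adjusted p = 0.00675). At 5% CO2 its values were 12.1, 14.8 and 17.1 CPM with LPS, against 24.0, 23.2 and 26.1 CPM without (−0.74 ± 0.13, adjusted p = 0.000386).

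SOCS6, linked to receptor tyrosine kinases such as KIT, and SOCS7, which binds adaptor proteins, did not pass in either LPS comparison. SOCS6 ranged from 27.7 to 29.3 CPM with LPS and 28.7 to 36.3 CPM without at 10% CO2 (log2 change −0.16, 95% interval −0.37 to 0.06, adjusted p = 0.257). At 5% CO2 it ranged from 29.5 to 33.4 CPM with LPS and 34.9 to 39.1 CPM without (−0.25, 95% interval −0.46 to −0.03, adjusted p = 0.0886). SOCS7 ranged from 50.2 to 53.0 CPM with LPS and 45.1 to 48.9 CPM without at 10% CO2 (0.11, 95% interval −0.07 to 0.29, adjusted p = 0.338). At 5% CO2 it ranged from 45.1 to 50.5 CPM with LPS and 42.0 to 44.2 CPM without (0.15, 95% interval −0.03 to 0.32, adjusted p = 0.237).

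STAT3 itself changed little (ENSG00000168610, chromosome 17, 42313324 to 42388568). It had 222, 210.1 and 219 CPM with LPS at 10% CO2, against 194, 171 and 176 CPM without. With LPS at 5% CO2 it had 207, 199 and 196 CPM, against 189, 179 and 179 CPM without. The groups did not overlap, and the rise was called at 10% CO2 (0.27 ± 0.07, adjusted p = 0.00772) but not at 5% CO2 (0.14 ± 0.07, adjusted p = 0.191).

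Changes this small depended on the scaling. Scaled to total counts without TMM factors, a setting chosen after the data were seen, the median of all genes moved to −0.24 for LPS at 10% CO2 and −0.19 at 5% CO2. On that scale STAT3 was at 0.06 (adjusted p = 0.571) and −0.03 (adjusted p = 0.766), and SOCS7 turned to −0.11 and −0.03. SOCS6 was called as lower, at −0.37 (adjusted p = 0.00735) and −0.42 (adjusted p = 0.00425). STAT3 was also not called at 10% CO2 with no filter on low counts (0.24, adjusted p = 0.0667). The other called members kept their direction and call on the total count scale in both LPS comparisons. At 10% CO2, 7 members were called in each of the 12 fits that left out a library, and at 5% CO2 between 4 and 7.

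**Figure D2:**
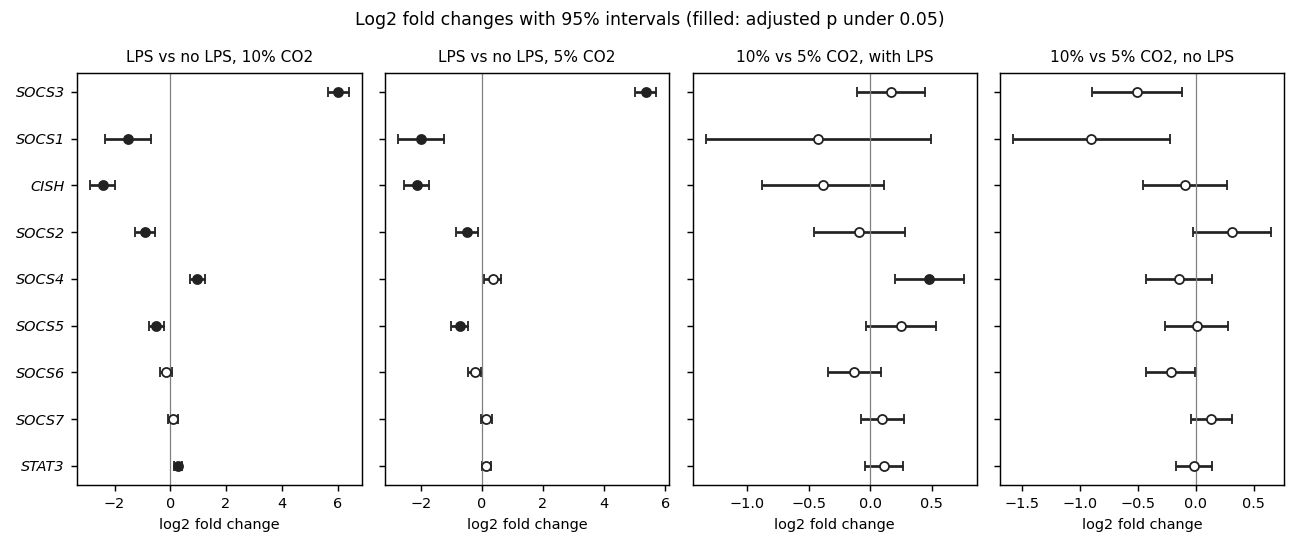
Log2 fold change of each gene (horizontal axis) with its 95% interval from the fit in the 4 pairwise comparisons, filled where the adjusted p was under 0.05. SOCS3 stands at 6.03 and 5.36 for LPS and CISH at −2.43 and −2.14, while SOCS4 with LPS is the filled point among the CO2 comparisons.

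Levels were compared between genes as TPM (transcript counts scaled for length and depth), computed here from counts and exon length. Without LPS, STAT3 was the most abundant, with 75.8 ± 5.33 TPM at 10% CO2 and 81.0 ± 3.79 TPM at 5% CO2 (SD, n = 3). SOCS6, SOCS4, SOCS7 and SOCS5 followed between 18.1 and 24.2 TPM in both groups, with ranges that overlapped from each to the next. SOCS1 stood at 9.48 ± 4.61 TPM at 10% CO2, overlapping CISH, and at 18.7 ± 7.41 TPM at 5% CO2, overlapping SOCS5. CISH and SOCS3 stood at 8.04 ± 0.627 and 5.80 ± 1.23 TPM at 10% CO2, and at 9.04 ± 0.880 and 8.71 ± 1.63 TPM at 5% CO2, where their ranges overlapped. SOCS2 was lowest, at 4.77 ± 1.04 TPM at 10% CO2, where it overlapped SOCS3, and 4.05 ± 0.631 TPM at 5% CO2. With LPS the order changed: SOCS3 led with 316 ± 39.5 TPM at 10% CO2 and 307 ± 32.2 TPM at 5% CO2, above STAT3 with 76.1 ± 6.13 and 76.7 ± 3.54 TPM. CISH was lowest, at 1.23 ± 0.483 and 1.75 ± 0.387 TPM, and of the neighbours in that order only SOCS7 and SOCS6 at 5% CO2 overlapped.

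SOCS3 made up 79.2% ± 2.34 of the summed TPM of the 8 SOCS-box genes with LPS and 5.42% ± 0.745 without at 10% CO2. At 5% CO2 its share was 79.3% ± 2.12 with LPS and 6.85% ± 1.07 without (SD, n = 3). The other 7 together summed to 82.4 ± 3.66 TPM with LPS and 100.5 ± 9.51 TPM without at 10% CO2, and to 79.7 ± 1.58 TPM with LPS and 118 ± 2.59 TPM without at 5% CO2. The family's transcripts were therefore mostly SOCS3 after LPS, on this length-scaled measure. TPM carries no TMM factors, so the sums with and without LPS also depend on the scaling. At 10% CO2, SOCS7 stood at 18.3 TPM with LPS and 20.4 TPM without, but at 51.3 and 47.5 TMM-normalized CPM.

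**Figure D3:**
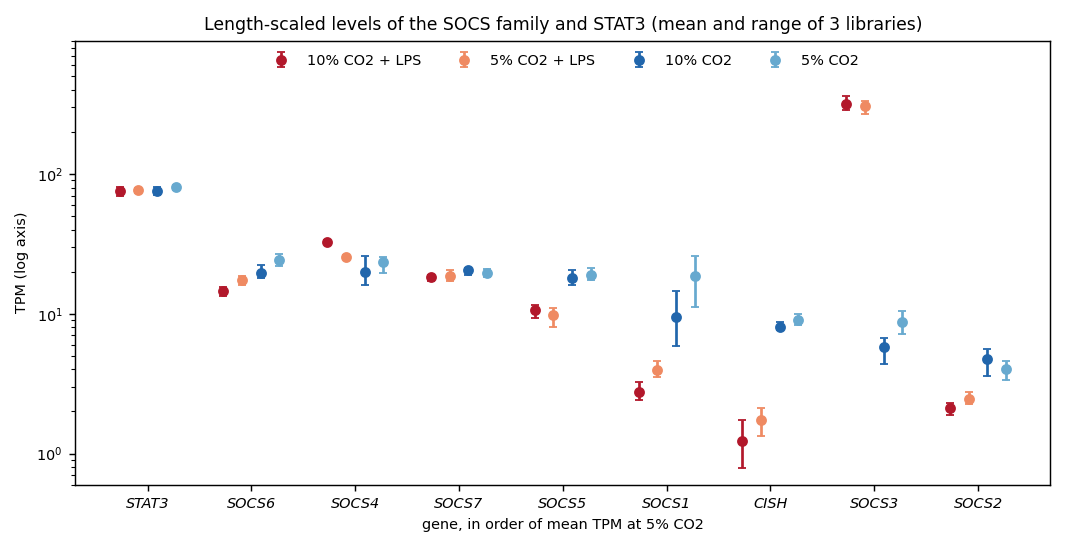
Mean TPM (log axis) of each gene in the 4 groups, with bars from the lowest to the highest of 3 libraries, in order of the mean at 5% CO2. With LPS, SOCS3 lies above STAT3 in both groups, and CISH, SOCS1 and SOCS2 lie below 5 TPM.

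The comparison of 10% with 5% CO2 asked whether hypercapnia changes the same genes. With LPS, SOCS4 rose and none of the other 8 passed. Its values were 75.4, 76.0 and 72.2 CPM at 10% CO2, against 52.3, 51.4 and 56.3 CPM at 5% CO2, and the groups did not overlap. The log2 change was 0.48 ± 0.13 (95% interval 0.20 to 0.76, adjusted p = 0.032), or 1.40-fold, and DESeq2 also called this member alone. Of all genes tested 8.75% were called in this comparison (4.29% higher, 4.46% lower), so 1 call among 9 lies near the background. The call was lost without any of 5 libraries, namely replicates 1, 2 and 3 of 10% CO2 with LPS (adjusted p = 0.0654, 0.114 and 0.063) and replicates 1 and 2 of 5% CO2 with LPS (0.114 and 0.11). The mitochondrial share of counts was 3.11% at 10% CO2 and 1.55% at 5% CO2 in these libraries, and its part in the result was not tested.

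SOCS3 with LPS did not pass between CO2 levels (log2 change 0.17, 95% interval −0.11 to 0.45, adjusted p = 0.449), nor did CISH (−0.39, −0.88 to 0.11, adjusted p = 0.327) or STAT3 (0.11, −0.04 to 0.27, adjusted p = 0.36). The CISH value lay between −0.68 (without replicate 3 of 10% CO2 with LPS) and −0.17 (without replicate 2 of that group) when a library was left out, and was never called. SOCS1 had the widest interval (−0.42, −1.34 to 0.49). Of the 9 members, 3 had groups that did not overlap (SOCS4, SOCS6 and STAT3), and so did 31.4% of all genes tested.

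Without LPS, 0 of the 9 members passed at 10% against 5% CO2 by edgeR, 0 by DESeq2, and 3 had an unadjusted p under 0.05. Of all genes 1.46% were called (0.799% higher, 0.665% lower). Libraries did not overlap for 2 members (SOCS3 and SOCS7) and for 20.7% of all genes. The 3 with a low unadjusted p were SOCS1, SOCS3 and SOCS6. SOCS1 was at 3.11 ± 1.47 CPM at 10% and 5.90 ± 2.55 CPM at 5% CO2 (SD, n = 3), with overlapping groups (log2 change −0.90, 95% interval −1.58 to −0.23, adjusted p = 0.155). SOCS3 was at 4.27 ± 0.847 CPM at 10% and 6.07 ± 1.11 CPM at 5% CO2, with every library at 10% below every library at 5% (−0.51, −0.90 to −0.12, adjusted p = 0.166). SOCS6 was at 31.7 ± 4.02 CPM at 10% and 36.8 ± 2.12 CPM at 5% CO2 (−0.22, adjusted p = 0.276). With no filter on low counts SOCS1 and SOCS3 passed (adjusted p = 0.00821 and 0.0261), and SOCS1 passed without 10% CO2 replicate 3 (0.0425). The mitochondrial share was 2.66% at 10% and 1.57% at 5% CO2, and its part in these values was not tested. Averaged over LPS, 0 members passed by edgeR or DESeq2 and 2 had an unadjusted p under 0.05, SOCS1 (−0.66 ± 0.27, adjusted p = 0.103) and SOCS6 (−0.17 ± 0.07, adjusted p = 0.109), while 16.8% of all genes were called (8.06% higher, 8.69% lower). SOCS1 passed there with no filter (adjusted p = 0.00863) and without 5% CO2 replicate 3 (0.0243) or 10% CO2 replicate 3 (0.0183), and SOCS6 without 10% CO2 replicate 1 (0.0287).

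Whether the LPS response differed between CO2 levels was tested as an interaction, in which a positive value means a larger LPS effect at 10% CO2. It was 0.68 ± 0.23 for SOCS3 and 0.62 ± 0.19 for SOCS4, with unadjusted p = 0.00835 and 0.00409 and edgeR adjusted p = 0.614 and 0.512. For SOCS3, 10% against 5% CO2 gave a log2 change of −0.51 without LPS and 0.17 with LPS. For SOCS4 the values were −0.14 without LPS and 0.48 with LPS. By edgeR and by DESeq2 0 of 9 members passed, and 2 had an unadjusted p under 0.05, while 0.0244% of all genes (4) were called. With no filter on low counts both passed (adjusted p = 0.0402 and 0.046), and SOCS4 passed without 10% CO2 replicate 1 (0.0149). The other 7 ranged from −0.40 for SOCS2 to 0.48 for SOCS1. For genes that fell with LPS, a positive value means a smaller fall at 10% CO2. The log2 change with LPS at 10% against 5% CO2 was −0.91 against −0.50 for SOCS2 and −1.52 against −2.00 for SOCS1. The LPS and CO2 comparisons share libraries, so their values are not independent of each other.

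The counts of called genes in the 6 lists below are to be read beside the shares over all genes tested, 16.6% higher and 18.6% lower with LPS at 10% CO2 and 11.8% higher and 13.1% lower at 5% CO2. Among 28 cytokine and ligand genes, 13 were tested. Of these 9 rose and 0 fell with LPS at 10% CO2 (median log2 change 4.51), and 9 rose and 1 fell at 5% CO2 (median 4.86), against medians of −0.02 and −0.01 over all genes. These medians rest on fitted values, some of them against groups at or near 0 reads. Genes such as IL6, with 0 reads without LPS, passed the filter on low counts only through the groups with LPS. The filter thus favours rises among the 13, and the shares over all genes are not an even measure for these counts. LIF, a gp130 cytokine, stood at 17.2 CPM with LPS and 0.740 CPM without at 10% CO2 (4.51 ± 0.27, adjusted p = 5.88e-10), and at 23.1 CPM with LPS and 0.781 CPM without at 5% CO2 (4.86 ± 0.27, adjusted p = 2.05e-10). IL12B and IL23A, subunits of cytokines that signal through STAT3 and STAT4, stood at 101 and 549 CPM with LPS at 10% CO2, against 0.163 and 4.16 CPM without. At 5% CO2 they stood at 57.6 and 309 CPM with LPS, against 0.113 and 3.65 CPM without.

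IL6, the classical inducer of SOCS3 through STAT3, had 114 reads in the 3 libraries with LPS at 10% CO2 and 87 at 5% CO2, against 0 in all 6 libraries without. Set against a floor of 3 counts per library it was at least 15.2-fold higher at 10% and at least 10.1-fold higher at 5% CO2. IFNB1, the interferon-beta gene, had 51 reads with LPS and 4 without at 10% CO2, and 44 with LPS and 0 without at 5% CO2, where it was at least 5.09-fold higher. IL10 was not tested, with 14 reads with LPS and 2 without at 10% CO2, a ratio of 8.25 (exact 95% interval 1.89 to 74.8), and 13 with LPS and 3 without at 5% CO2, a ratio of 4.55 (1.25 to 24.9). Both intervals cover counting error only. CSF2 had 1 read over all libraries. OSM did not pass at 10% (2.42 CPM with LPS, 3.03 without, adjusted p = 0.473) or 5% CO2 (4.81 with LPS, 3.80 without, adjusted p = 0.479).

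Of 30 tested receptor genes, 11 rose and 9 fell with LPS at 10% CO2 and 9 rose and 3 fell at 5% CO2 (medians 0.00 and 0.02), beside 35.2% and 24.9% of all genes called in either direction. IL6ST, the gp130 chain whose signal SOCS3 blocks, rose by 1.55 ± 0.16 (adjusted p = 1.6e-06) and 1.32 ± 0.16 (adjusted p = 1.53e-05). IL6R, the IL-6 binding chain, fell at both levels (−1.05 ± 0.09 at 10% and −0.60 ± 0.09 at 5% CO2, adjusted p = 2.2e-08 and 4e-05). IFNGR2 and IL12RB2, receptor chains for interferon-gamma and IL-12, rose by 1.60 ± 0.13 and 1.37 ± 0.11 at 10% CO2 and by 1.46 ± 0.13 and 0.90 ± 0.11 at 5% CO2. IL7R, the IL-7 receptor gene, rose by 2.08 ± 0.21 at 10% and 2.07 ± 0.21 at 5% CO2.

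Among 9 Janus kinases and other STATs, 4 rose with LPS at 10% CO2 (median 0.33) and 3 at 5% CO2 (median 0.08), and none of the 9 was called as lower by edgeR, beside 16.6% and 11.8% of all genes called higher. STAT5A, the factor upstream of CISH in the textbook pathway, rose to 72.8 ± 14.6 CPM with LPS at 10% CO2, against 17.5 ± 1.03 CPM without (2.05 ± 0.15, adjusted p = 6.3e-09). At 5% CO2 it stood at 53.3 ± 8.91 CPM with LPS, against 23.2 ± 3.36 CPM without (1.20 ± 0.15, adjusted p = 6.98e-06). STAT4, which relays IL-12, rose by 3.12 ± 0.24 and 1.71 ± 0.22. STAT2, a factor of type I interferon signalling, rose at 10% CO2 (0.63 ± 0.13) and did not pass at 5% CO2 (0.26 ± 0.13, adjusted p = 0.154). At 10% CO2 JAK3 did not pass, with 31 reads with LPS and 17 without (adjusted p = 0.241). It passed at 5% CO2 with 43 reads with LPS and 9 without (adjusted p = 0.0315), and lost its call when replicate 1 or 3 with LPS (adjusted p = 0.129 and 0.0728) or replicate 1 or 3 without LPS (0.112 and 0.113) was left out.

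Smaller changes in this group depended on the scaling. JAK1 was called at 10% CO2 (0.33 ± 0.09, adjusted p = 0.0111), but not on the total count scale (0.11, adjusted p = 0.352). Leaving out 10% CO2 replicate 2 or 3 also ended its call (adjusted p = 0.0575 and 0.0569). At 5% CO2 it did not pass (0.08, adjusted p = 0.614). JAK2 and TYK2 did not pass with LPS at either CO2 level (0.06 and −0.04 at 10%, −0.02 and −0.08 at 5%), and TYK2 was called as lower on the total count scale (−0.26 and −0.25, adjusted p = 0.032 and 0.0456).

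Of 15 other brakes on cytokine signalling, 5 rose and 3 fell with LPS at each CO2 level (medians 0.03 at 10% and −0.06 at 5% CO2), beside 35.2% and 24.9% of all genes called. The phosphatase genes PTPN1 and PTPN2, whose products dephosphorylate JAKs and STATs, rose by 1.60 ± 0.08 and 0.87 ± 0.10 at 10% CO2 and by 0.98 ± 0.08 and 0.62 ± 0.10 at 5% CO2. PDLIM2, a STAT ubiquitin ligase gene, fell by 1.07 at 10% CO2 (SE 0.15) and 0.72 at 5% CO2 (SE 0.15). SH2B3, the gene of the adaptor LNK, rose by 0.76 ± 0.11 at 10% and 0.67 ± 0.11 at 5% CO2.

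Of 9 ubiquitin ligase partners of the SOCS box, 1 rose and 1 fell with LPS at 10% CO2 and 2 rose and 1 fell at 5% CO2 (medians 0.09 and 0.17), beside 35.2% and 24.9% of all genes called. The adaptor gene ELOC rose at both levels, by 0.27 ± 0.07 and 0.29 ± 0.07, and RBX1, a RING subunit gene, by 0.27 ± 0.09 at 5% CO2, with 0.23 ± 0.09 at 10% CO2 (adjusted p = 0.0506). On the total count scale ELOC (adjusted p = 0.573 and 0.246) and RBX1 (0.41) lost their calls. RNF7, the RING subunit that works with CUL5, fell at both levels (−0.40 ± 0.09 and −0.28 ± 0.09). At 5% CO2 the call of RNF7 rested on replicate 1 with LPS (adjusted p = 0.153 without it) and on replicates 2 and 3 without LPS (0.117 and 0.0543), and that of RBX1 on replicate 3 with LPS (0.164) and replicates 1 and 3 without LPS (0.0766 and 0.0963). With no filter on low counts the calls of ELOC at 10% CO2 (adjusted p = 0.0838) and of RBX1 (0.0688) and RNF7 (0.138) at 5% CO2 were lost, the last also in a fit of those 2 groups alone (0.0517).

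Of 24 tested STAT3 target genes, 10 rose and 4 fell with LPS at 10% CO2 (median 0.38), and 12 rose and 3 fell at 5% CO2 (median 0.30). The shares over all genes were 16.6% higher and 18.6% lower at 10%, and 11.8% higher and 13.1% lower at 5% CO2. JUNB, an AP-1 subunit, rose by 2.69 ± 0.11 and 2.60 ± 0.11, and NFIL3, a repressor of IL12B, by 2.16 ± 0.11 and 2.36 ± 0.11. MYC, a growth regulator, fell by 3.23 at 10% CO2 (SE 0.11) and 2.74 at 5% CO2 (SE 0.11), against the direction of JUNB and NFIL3. Many of these targets also answer to other LPS-activated factors, so the list does not measure STAT3 activity.

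**Figure D4:**
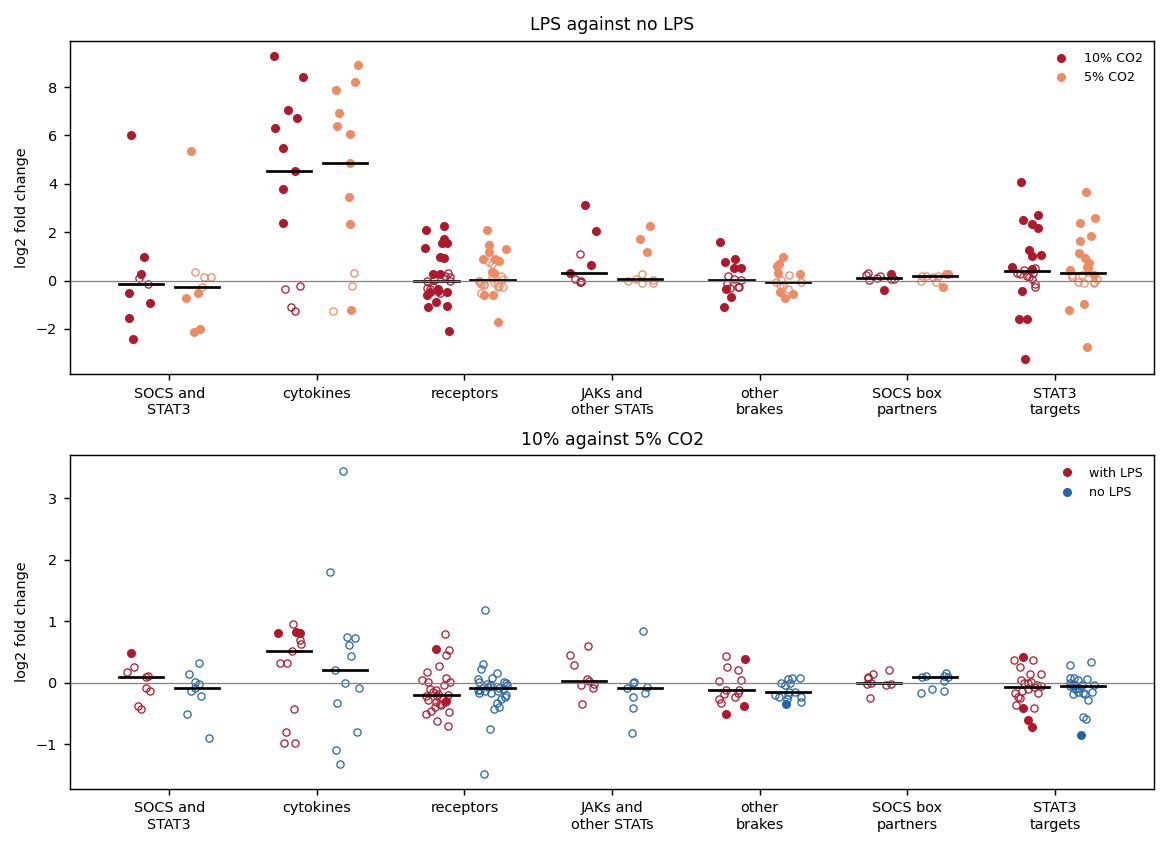
Log2 fold change (vertical axis) of each tested gene (points, filled where the adjusted p was under 0.05) in 7 lists, with the list's median as a black line. The upper plot shows LPS against no LPS at 10% and 5% CO2 and the lower one 10% against 5% CO2 with and without LPS, where the vertical range is narrower and IL6, with 0 reads in all libraries without LPS, is drawn at 0 for that comparison.

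Between CO2 levels, calls among the pathway genes are to be read beside backgrounds of 8.75% with LPS (4.29% higher, 4.46% lower) and 1.46% without. With LPS, 3 of 13 cytokine genes rose at 10% CO2. IL12B rose by 0.81 ± 0.16 (adjusted p = 0.00895), TSLP, an epithelial-type cytokine gene, by 0.81 ± 0.17 (adjusted p = 0.00921) and IL23A by 0.83 ± 0.20 (adjusted p = 0.0313). PTPN1 rose by 0.38 ± 0.08 (adjusted p = 0.00866) and 2 of the 15 other brakes fell, PIAS3 (−0.39 ± 0.11) and PDLIM2 (−0.51 ± 0.15). The receptor gene IL12RB2 rose by 0.54 ± 0.10 and IL6R was at −0.29 ± 0.09 (adjusted p = 0.0454). Among STAT3 targets CCND1, encoding cyclin D1, rose by 0.42 ± 0.10, while MYC (−0.42 ± 0.10) and MUC1 (−0.61 ± 0.17) were 2 of the 3 that fell. None of the 9 kinases and STATs and none of the 9 SOCS box partners passed with LPS by edgeR. Near the threshold were OSM (−0.98 ± 0.32, adjusted p = 0.0628, or 0.026 by DESeq2) and IL6ST (0.52 ± 0.16, adjusted p = 0.0506, or 0.0172 by DESeq2).

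Each of these calls except that of IL12B and IL12RB2 was lost when 1 library was left out. The calls of TSLP (adjusted p = 0.0808 without the 10% and 0.0558 without the 5% library), CCND1 (0.0549 and 0.0509) and PTPN1 (0.0701 and 0.0526) were lost without replicate 2 of either group. MYC was lost without replicates 2 (0.129) or 3 (0.0547) at 10% CO2 or replicate 1 (0.116) at 5% CO2. The number of single libraries whose loss ended the call was 5 for IL23A, PIAS3 and MUC1, 6 for PDLIM2 and 8 for IL6R, each with replicate 2 at 10% CO2 among them (adjusted p without it 0.0701, 0.174, 0.153, 0.233 and 0.25). In a fit of the 2 compared groups alone IL23A (0.134) and IL6R (0.068) were not called, and IL6R missed with RLE size factors (0.0502).

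Without LPS, the leukocyte phosphatase gene PTPRC (−0.35 ± 0.08, adjusted p = 0.0358) and the STAT3 target BCL3 (−0.85 ± 0.17, adjusted p = 0.0222) fell at 10% CO2, and no other gene described here from the 6 lists passed. Both lost their calls without 10% CO2 replicate 2 (adjusted p = 0.23 and 0.15), 5% CO2 replicate 1 (0.133 and 0.119) or 5% CO2 replicate 2 (0.0778 for each). The call of PTPRC also ended without replicate 3 at 10% (0.0576) or 5% CO2 (0.0855) or 10% CO2 with LPS replicate 1 (0.0546) or 3 (0.0509), and in a fit of the 2 compared groups alone (0.104). STAT5A had a log2 change of 0.45 ± 0.14 with LPS and −0.41 ± 0.15 without, with groups that did not overlap in either case. Neither passed by edgeR (adjusted p = 0.0573 and 0.173), the value with LPS passed by DESeq2 (0.0335), and the interaction of 0.85 ± 0.21 had an unadjusted p = 0.00069 and an adjusted p = 0.231, or 0.0384 by DESeq2.

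Profiles were compared with 10783 genes that averaged 5 CPM or more, and those most alike over the 12 libraries were listed by Pearson's r of log2(CPM + 0.5), as a description in which the 4 groups and the library scaling are shared. The nearest to SOCS3 were ICAM1, an adhesion molecule gene (r = 0.999), NFKBIA, the NF-κB inhibitor gene (0.999), and IL1B (0.998). Those nearest to CISH were GIMAP6 (0.986), MYC (0.983) and RNF113A (0.983). SOCS1 was nearest to PIP4P1 (0.974), ORMDL3 (0.965) and LPIN3 (0.952), and STAT3 to ADAM9 (0.976), SLC7A1 (0.969) and NUP98 (0.968).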

How the data were processed

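The deposited values were unnormalized counts by Ensembl identifier, in featureCounts layout per the file headers. Per the submitters' processing notes the tools were STAR 2.5.2b on GRCh38, Trimmomatic 0.36 and Subread 1.5.2 (featureCounts). Not given in the sources used here were the annotation release, strand setting and treatment of multi-mapping reads. The tables' exon lengths (other values in the deposited tables) served for TPM. Of 57500 identifiers 98.1% matched a symbol. No column was set aside.

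Differences were tested in R 4.3.3 with edgeR 4.0.16, using filterByExpr, TMM and the robust quasi-likelihood F test on 4 group means over 12 libraries. The standard error is the log2 change divided by the root of F. DESeq2 1.42.0, RLE size factors, no filter, only the compared groups, a replicate block and leaving out each library were the alternatives. On simulated counts with 200 changed genes, the test for CO2 without LPS called 80.6% of the 1.5-fold and 100.0% of the 2-fold changes among 16049 genes, and that for LPS at 5% CO2 called 79.1% and 100.0% among 16050. The simulation gave every gene the same spread and changed only genes averaging at least 5 CPM. These shares do not apply to genes with fewer counts or a wider spread. SOCS1 without LPS is such a gene, with an SD of 47.1% of its mean at 10% and 43.2% at 5% CO2. No 2 libraries of a group agreed within sampling noise (chi-square over its degrees of freedom, 8.05 to 26.2), so none was treated as a duplicate deposit, which does not show that cultures were separate.

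The members and the 6 pathway lists were chosen with earlier results of these data known. Named beside the 9 members were, per comparison and list, the 3 called genes with the smallest p, and a fixed set of 11 genes (IL6, IL10, LIF, OSM, CSF2, IFNB1, IL6ST, JAK1, JAK2, TYK2 and STAT5A). Some genes of the lists and marker sets are not reported here and were left out of their counts.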

Additional observations from a re-analysis of the deposited data

How the results depend on the processing

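Counts of called members moved with no filter on low counts, to 2 for 10% against 5% CO2 without LPS, 2 for the interaction and 1 for CO2 averaged over LPS. Leaving out a library, they ranged from 0 to 1 in each of these and for CO2 with LPS. Calls over all genes for CO2 without LPS numbered 572 with no filter, 699 with the replicate block, 550 by DESeq2 and 71 with only the compared groups, against 240, and 0 (without 10% CO2 replicate 2) to 511 leaving out a library. For CO2 with LPS they ranged from 271 (without 10% CO2 with LPS replicate 2) to 1804, and averaged over LPS from 1664 to 3005. For the interaction, against 4, they were 1 with RLE factors, 2 with total counts, 108 with no filter, 11 with the replicate block, 47 by DESeq2 and 1 to 37 leaving out a library.

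Whether the replicate numbers pair the samples is not known. Correlations of same-numbered libraries' deviations were weak, from −0.126 to 0.226. For LPS at 10% CO2 each library correlated best with its own number, and in the other comparisons some libraries did and some did not. Under the replicate block SOCS4 was called for LPS at 5% CO2 (0.36, adjusted p = 0.029), and no other member changed its call. Of the other named genes, the block called IL6ST (0.527, adjusted p = 0.0301) and OSM (−0.961, adjusted p = 0.0257) for CO2 with LPS, and OSM averaged over LPS (−0.62, adjusted p = 0.0249).

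Signs that turned were all of values not called. On the total count scale LPS gave −0.027 for SOCS7, −0.033 for STAT3 and −0.096 for JAK1 at 5% CO2, and −0.106 for SOCS7 and −0.16 for JAK2 at 10% CO2. JAK1 was at −0.022 for CO2 with LPS and TYK2 at −0.006 for the interaction. For CO2 without LPS, STAT3 was at 0.004 with no filter. Leaving out a library gave, for CO2 without LPS, −0.09 to 0.107 for SOCS5, −0.071 to 0.021 for STAT3, −0.437 to 0.556 for LIF and −0.524 to 0.042 for OSM. For CO2 with LPS it gave −0.014 to 0.06 for JAK1 and −0.102 to 0.06 for TYK2. For LPS it gave −0.037 to 0.159 for JAK2 and −0.082 to 0.034 for TYK2 at 10% CO2, and −0.117 to 0.051 and −0.167 to 0.014 at 5% CO2. For the interaction it gave −0.02 to 0.176 for JAK2, −0.984 to 0.009 for LIF and −0.047 to 0.128 for TYK2, and averaged over LPS −0.432 to 0.064 for LIF and −0.053 to 0.089 for STAT5A. The causes were not tested.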

Other observations

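Averaged over LPS, 10% CO2 against 5% CO2 gave further calls in genes around the family, beside a background of 16.8%. The cytokine gene TSLP rose by 0.77 ± 0.15 on the log2 scale (edgeR adjusted p = 0.00212), while CNTF and CLCF1, ligands that use gp130, fell by 0.80 (SE 0.18, adjusted p = 0.00507) and 1.04 (SE 0.33, adjusted p = 0.0388). IL6ST rose by 0.41 ± 0.11 (adjusted p = 0.0229), IL12RB2 by 0.31 ± 0.07 and the growth hormone receptor gene GHR, at 29 to 69 reads a group, by 0.98 ± 0.28 (adjusted p = 0.0244). Of the 15 other brakes 5 fell and 0 rose, among them PTPRC (−0.26 ± 0.06), PIAS3 (−0.29 ± 0.08) and SH2B3 (−0.28 ± 0.08). CCND1 rose by 0.38 ± 0.07, and BCL3 and MUC1 fell by 0.51 (SE 0.11) and 0.58 (SE 0.12). CLCF1 lost its call without any of 8 single libraries, GHR and SH2B3 without any of 4, IL6ST without 5% CO2 replicate 2 (adjusted p = 0.0539) or 5% CO2 with LPS replicate 1 (0.057), and PIAS3 without 10% CO2 with LPS replicate 2 (0.0535). The mitochondrial share of counts was higher in all 6 libraries at 10% CO2, and its part in these values was not tested.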
